A study of Homo sapiens with 8 samples.

Results

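Origins of replication called in all 4 lines of a colon cancer cell panel were examined. The lines were HCT116 cells that lack p53 (WT, here the parent line with intact ORC genes) and their derivatives without ORC1, ORC2, or ORC5, which the labels name ORC1KO, ORC2KO, and ORC5KO. The set was chosen by the calls themselves: a WT origin on chromosomes 1 to 22 or X was a member if an origin of each knockout line overlapped it by at least 1 bp. Of 30195 WT origins, 18250 met this rule (60.4%, 95% Wilson interval 59.9% to 61.0%), and 11945 lacked a counterpart in at least 1 knockout line. SNS-seq had been run on 2 biological replicates of each line, 8 samples in all, and an origin was a peak found in both replicates of its line. The lists hold no isolated peaks: the largest gap from an origin to the next of its own list was 26017 bp in WT, 25683 bp in ORC1KO, 21839 bp in ORC2KO, and 20458 bp in ORC5KO. A site without a counterpart may thus be a peak that stood alone in a knockout line, and such peaks cannot be told apart from absent ones in the lists. All 4 lines lacked p53, and the knockouts were made with CRISPR–Cas9. The study's text describes ORC1, ORC2, and ORC5 as undetectable by western blot in their knockout lines. It notes that others had reported a trace of truncated ORC2 in the ORC2KO line, which the study itself did not detect. No expression was measured here, so the epithelial identity of the cells was not checked.

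The origin recognition complex (ORC) binds DNA in G1 phase and, with CDC6 and CDT1, loads the MCM2–7 helicase as a double hexamer, which is later activated by CDC45 and GINS. SNS-seq isolates the short nascent strands that leave a newly fired origin, protected from λ-exonuclease by their RNA primer, and sequences them, so that a peak marks where strands began. Human origins carry no strict consensus sequence but are often GC-rich, lie near promoters and CpG islands, and hold runs of guanines that can fold into G-quadruplexes (G4). G-quadruplexes can also slow λ-exonuclease, and their share in these peaks from that step was not tested. The 3 tables of reads that accompany the origin lists join the origins of WT and a knockout line into joined origins and merge the replicates of each line. No spread between replicates was therefore available, no test was run, and all differences below are descriptions. Intervals cover counting error only and leave out the spread between replicates and lines. Those of shares treat origins as independent, although members lay in runs, and are thus too narrow. Those of ratios take each read as separate, although copies of a molecule made by PCR are counted unless they were removed.

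The sequences of 8 members, picked as extremes, are shown as 200 bases around the midpoint of the WT interval. They are from GRCh38 and its forward strand, 5′ to 3′. The 8 are leading members of 3 kinds, those with the most WT reads per kb, those whose reads differed least between lines, and those whose reads stood farthest above or below WT in the 3 knockout lines. Capitals mark bases within a 25-base window whose G4Hunter score reached 1.5 in size on either strand, and a window can run past the printed stretch.
Highest density, chromosome 22, no gene (chr22:19725315-19725514): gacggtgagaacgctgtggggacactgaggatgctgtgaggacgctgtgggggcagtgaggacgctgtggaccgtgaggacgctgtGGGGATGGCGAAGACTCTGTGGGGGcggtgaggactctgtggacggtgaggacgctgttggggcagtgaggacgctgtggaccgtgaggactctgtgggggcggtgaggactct
Highest density, chromosome 16, no gene (chr16:46394668-46394867): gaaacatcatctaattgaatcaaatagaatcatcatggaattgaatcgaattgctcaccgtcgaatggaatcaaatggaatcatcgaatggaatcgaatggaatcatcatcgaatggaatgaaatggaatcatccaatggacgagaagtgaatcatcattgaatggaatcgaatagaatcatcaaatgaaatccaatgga
Steadiest, JAK3 (chr19:17841946-17842145): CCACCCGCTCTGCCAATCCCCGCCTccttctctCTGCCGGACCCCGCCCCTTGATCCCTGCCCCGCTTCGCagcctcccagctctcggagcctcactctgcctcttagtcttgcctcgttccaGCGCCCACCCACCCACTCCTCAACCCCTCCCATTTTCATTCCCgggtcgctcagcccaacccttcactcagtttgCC
Steadiest, R3HDM4 (chr19:900382-900581): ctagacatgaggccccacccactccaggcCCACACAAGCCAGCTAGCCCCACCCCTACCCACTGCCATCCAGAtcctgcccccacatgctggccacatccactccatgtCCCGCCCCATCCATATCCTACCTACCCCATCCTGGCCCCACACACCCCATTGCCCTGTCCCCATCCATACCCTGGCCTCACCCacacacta
Above WT in the 3 knockout lines, MEG8 (chr14:101020229-101020428): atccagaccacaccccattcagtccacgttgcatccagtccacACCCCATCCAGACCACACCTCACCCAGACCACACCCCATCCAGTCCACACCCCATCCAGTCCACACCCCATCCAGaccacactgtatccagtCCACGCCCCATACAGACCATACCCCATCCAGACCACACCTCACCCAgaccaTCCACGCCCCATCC
Above WT in the 3 knockout lines, PHF2 (chr9:93661538-93661737): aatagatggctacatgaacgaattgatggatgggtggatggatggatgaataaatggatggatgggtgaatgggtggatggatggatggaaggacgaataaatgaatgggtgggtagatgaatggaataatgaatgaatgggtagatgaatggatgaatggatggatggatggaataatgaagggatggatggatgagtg
Above WT in the 3 knockout lines, CERS4 (chr19:8248708-8248907): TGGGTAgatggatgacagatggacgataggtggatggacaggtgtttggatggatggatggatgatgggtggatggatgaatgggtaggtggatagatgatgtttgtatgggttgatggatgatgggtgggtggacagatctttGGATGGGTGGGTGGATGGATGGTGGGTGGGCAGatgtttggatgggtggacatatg
Below WT in the 3 knockout lines, MOCS1 (chr6:39926757-39926956): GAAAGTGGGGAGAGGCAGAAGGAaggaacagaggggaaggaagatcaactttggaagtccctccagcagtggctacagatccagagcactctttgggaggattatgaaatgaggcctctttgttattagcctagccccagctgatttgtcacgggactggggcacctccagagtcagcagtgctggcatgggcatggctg
Among the members of highest density and the steadiest ones, the chromosome 16 stretch stood apart, with 35.0% GC and no base in a G4 window. It holds 40 guanines and 30 cytosines. The chromosome 22 stretch has 65.0% GC and holds 96 guanines and 34 cytosines in 200 bases. The JAK3 and R3HDM4 stretches have 65% and 63% GC, with 101 and 103 cytosines and 29 and 23 guanines. These 3 were thus one-sided in G and C, as were all 3 of the members that stood above WT. The MEG8 stretch holds 103 cytosines and 17 guanines, the PHF2 stretch 80 guanines and 4 cytosines, and the CERS4 stretch 94 guanines and 7 cytosines. The letters GGAT occur 16 times in the PHF2 stretch and 14 times in the CERS4 stretch, and ATCC, the same letters on the other strand, 10 times in the MEG8 stretch. The MOCS1 stretch, from a member below WT, has 67 guanines and 41 cytosines.

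Members sat at nearly the same bases in the 4 lines. Since the rule asks for an overlap in each line, a part of this agreement was built into the choice. For distances and widths, the counterpart was the origin with the largest overlap. For 18064 of the 18250 members (98.98%), each knockout line had exactly 1 counterpart. The median distance between the midpoints of a member and its counterpart was 30.5 bp in ORC1KO, 28.5 bp in ORC2KO, and 27.5 bp in ORC5KO, against a median member width of 571 bp. It was 100 bp or less for 88.1%, 89.0%, and 90.0% of the members in the same order, and above 250 bp for 479, 489, and 465 of them. The counterparts covered a median of 93.8%, 98.7%, and 99.2% of the member's bases. The bases shared by all 4 intervals had a median length of 486 bp (interquartile range 391 to 636 bp), and made up a median of 74.6% of the span that the 4 intervals covered together. In 4 members no base was common to all 4 intervals. Counterparts were wider than the member for 43.9% of members in ORC1KO, 65.2% in ORC2KO, and 68.2% in ORC5KO.

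The members at the edge of the rule show what it admits. The smallest overlap was 6 bp, between a member in an intron of DNAH1, which encodes an axonemal dynein heavy chain, and an ORC5KO origin (chr3:52342053-52342664). Another member, on chromosome 22 near a start site (chr22:50169083-50169816), overlapped an ORC1KO origin by 47 bp. Just outside the rule, an origin in an intron of RTN4RL1 lay 4 bp from the nearest ORC1KO origin, an origin in an intron of ADGRB2 lay 32 bp from one of ORC2KO, and an origin on chromosome 11 lay 68 bp from one of ORC1KO. Such near misses were few. Of the 5931 WT origins with counterparts in exactly 2 knockout lines, 7 lay within 100 bp of an origin of the third line, and the median gap was 22641 bp. On the other side, 4 members overlapped their least-overlapping counterpart by under 100 bp.

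The ORC1KO list was the one that most often kept a WT origin out. A counterpart existed for 71.1% of WT origins in ORC1KO, 78.6% in ORC2KO, and 82.6% in ORC5KO, an order that followed the sizes of the lists, with 33530, 37811, and 41328 origins. Among WT origins that had counterparts in exactly 2 knockout lines, 3756 lacked only the ORC1KO one, 1314 only the ORC2KO one, and 861 only the ORC5KO one. Seen from the knockout lists, intervals that touched a member made up 54.5% of the ORC1KO list, 48.2% of the ORC2KO list, and 44.2% of the ORC5KO list.

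Members were the stronger and wider part of the WT list. Their joined origins had a median of 24.8 RPM in WT (reads per 1000000 reads of the line in the table, averaged over the 3 tables), against 15.5 for the other WT origins. Per kb of joined origin, the median was 38.7 RPM in members and 31.4 in the others, and the median WT interval was 571 bp wide in members and 462 bp in the others. The values rose in steps with the number of knockout lines that had a counterpart: 12.95 RPM for WT origins with none, 15.1 for those with 1, 16.9 for those with 2, and 24.8 for members. In the decile of WT origins with the fewest reads 14.9% were members (95% Wilson interval 13.6% to 16.2%), and in the decile with the most reads 90.7% were (89.6% to 91.6%). For width, the shares ran from 32.9% in the narrowest decile to 83.3% in the widest. Peak callers detect strong and wide peaks more readily, and the part of this in membership was not tested. Joined origins of members were also wider (median 628 to 654 bp, against 479 to 505 bp), which adds to their reads.

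**Figure D1:**
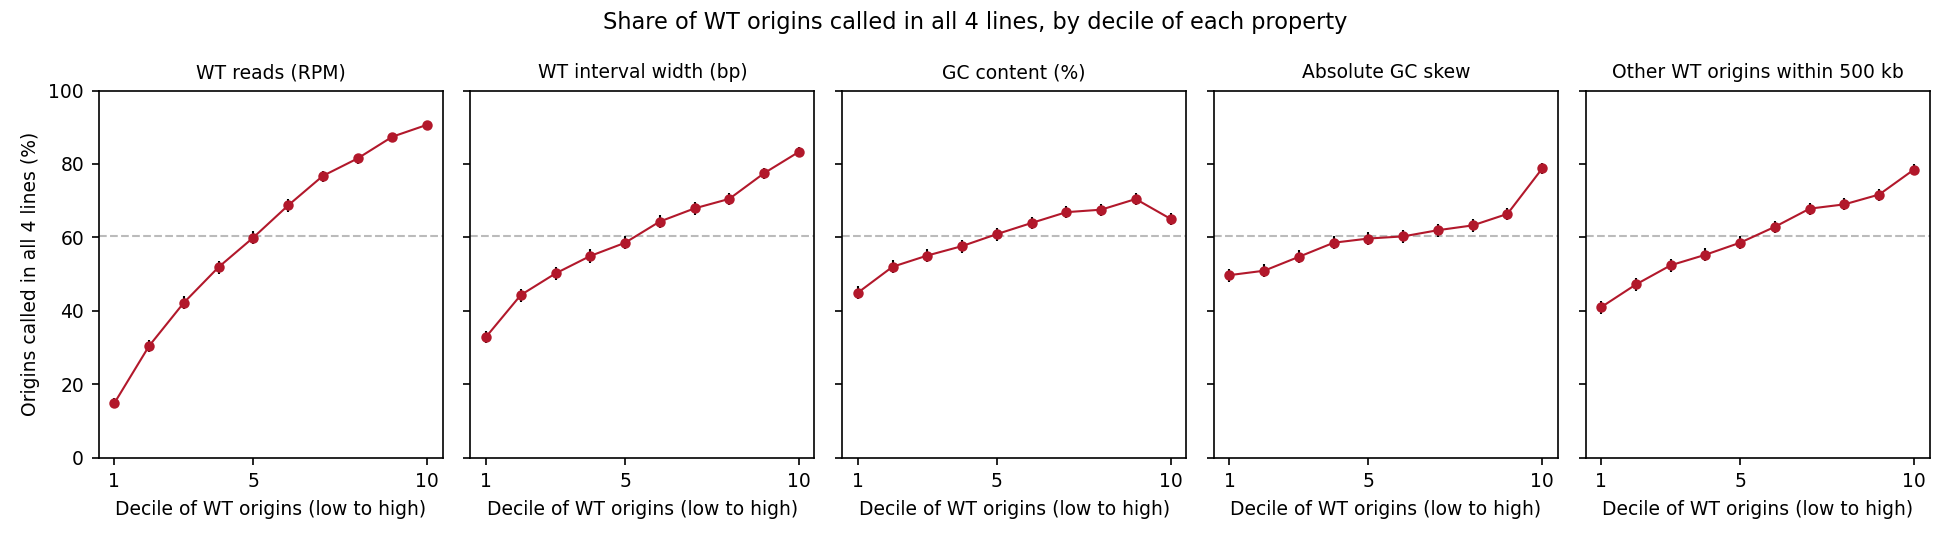
The share of WT origins called in all 4 lines (vertical axes, %) is plotted for deciles of the 30195 WT origins ordered by WT reads, interval width, GC content, absolute GC skew, and number of other WT origins within 500 kb (horizontal axes, from the lowest to the highest decile). Points are shares, bars 95% Wilson intervals, and the dashed line the 60.4% of all WT origins. The share ran from 14.9% to 90.7% over WT reads, and fell from 70.5% to 65.1% between the last deciles of GC content.

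The absence of a call did not mean the absence of reads. In ORC1KO, the 8726 WT origins without a counterpart had a median of 12.3 RPM (interquartile range 10.2 to 15.7) in the ORC1KO reads, against 24.4 RPM (18.1 to 36.5) in members. The corresponding medians were 11.1 and 24.6 RPM in ORC2KO, and 12.0 and 23.9 RPM in ORC5KO. Some uncalled sites were as strong as a typical member: 607 of them in ORC1KO (6.96%), 592 in ORC2KO (9.17%), and 575 in ORC5KO (10.96%) had more reads than the median member in that line. Most of these strong sites were far from any listed origin of the line. At least 88.8% in ORC1KO, 98.0% in ORC2KO, and 97.6% in ORC5KO lay more than 20458 bp from the nearest, which is the smallest spacing limit of the 4 lists.

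Members were richer in GC and in predicted G4 than the other WT origins. Their median GC content was 56.0% against 53.0%, and 31.1% of members exceeded 60% GC, against 22.9% of the others and 2.24% of 500-bp windows of the genome. The share with a G4Hunter window in the interval was 93.8% in members and 87.0% in the others. In 500 bp around the midpoint, which takes out the difference in width, it was 91.7% and 86.6%, against 17.9% of genome windows. Around the midpoints of members, the GC content reached 56.8% and declined to 49.9% at 1750 to 2000 bp, while the others reached 54.3% and declined to 46.8%. In the central 100 bp, a 50-bp bin held the start of a G4 window in 41.0% of members and 28.9% of the others, which fell to 8.96% and 6.18% at 1750 to 2000 bp. Median GC content was higher in members on each of the 23 chromosomes. The share with a G4 window in the interval was higher on 22 of them, with chromosome X as the exception. In 500 bp around the midpoint it was higher on 21, with chromosomes 13 and X as the exceptions.

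**Figure D2:**
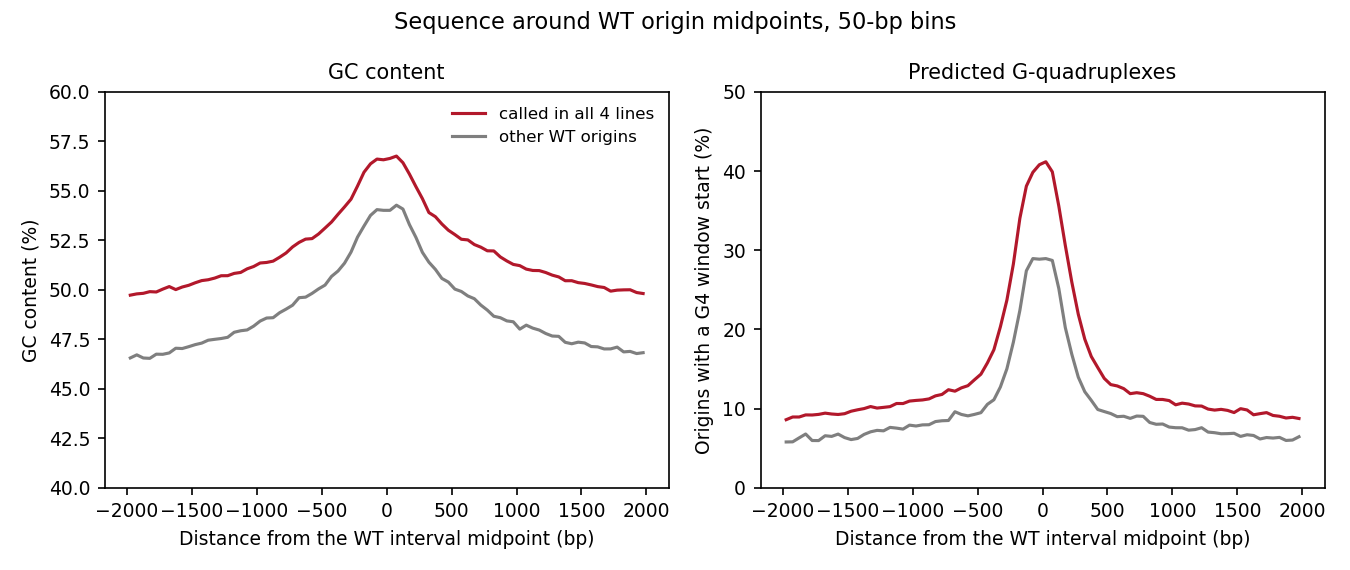
GC content (left, %, axis from 40) and the share of origins in which a 25-base G4 window starts (right, %) are plotted in 50-bp bins against the distance from the WT interval midpoint in bp. Lines are the 18250 origins called in all 4 lines and the 11945 other WT origins. Both measures were highest within 75 bp of the midpoint, and members lay above the others also at the edges of the plot, with 49.9% against 46.8% GC.

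Members were also more one-sided in G and C than the other WT origins. The absolute GC skew, the difference of G and C over their sum without its sign, had a median of 0.357 in members and 0.319 in the others. The share of members was 49.7% in the lowest decile of skew and 78.8% in the highest. Of the 565 WT origins with an absolute skew of 0.8 or more, 488 were members (86.4%, 95% Wilson interval 83.3% to 89.0%). Guanines exceeded cytosines on the forward strand in 49.9% of members, so neither strand was preferred. Tandem repeats of ATCC, counted from 4 exact copies in any rotation and on either strand, were held by 2.07% of all WT origins, by 2.93% of members, and by 0.762% of the others. Of 625 WT origins with this repeat, 534 were members (85.4%, 82.5% to 88.0%). Repeats of TACC were found in 3 members and 3 other WT origins.

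In CpG islands and start sites of genes, members differed little from the others. A predicted CpG island overlapped 3310 members (18.1%) and 15.5% of the others, and a start site of a protein-coding gene lay within 1 kb of 2743 members (15.0%) and 13.01% of the others. With the midpoint required to lie in the island, the shares were 10.9% and 10.9%. By position, the share of members was 63.8% at start sites, 67.6% in other exons of protein-coding genes, 60.1% in their introns, 55.2% in genes of long noncoding RNA only, and 59.0% outside genes. WT origins with both an island and a start site were members in 62.0% of cases, those with an island alone in 67.0%, those with a start site alone in 68.1%, and those with neither in 59.2%. Introns held 38.2% of members and sites outside genes 26.2%, and the median distance to a start site was 18731 bp.

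With reads held similar, the differences in width, CpG islands, start sites, and GC content turned over in all or some quintiles. WT origins were divided into quintiles by WT reads, and members were set against the others within each. Absolute GC skew, ATCC repeats, G4 in 500 bp, and the number of neighbouring origins were higher in members in 5 of 5 quintiles. In the quintile with the fewest reads, for example, the median skew was 0.363 in members and 0.321 in the others, and ATCC repeats were held by 2.41% and 0.300%. The share with a CpG island, by contrast, was lower in members in 5 of 5 quintiles, at 4.68% against 8.24% in the lowest quintile and 33.0% against 39.1% in the highest. The share with a start site was also lower in 5 of 5 quintiles, at 5.26% against 7.71% and 24.2% against 30.2% in the same quintiles. Members were narrower in 5 of 5 quintiles, with a median of 386 against 390 bp in the lowest and 826 against 902.5 bp in the highest. Reads were not fully equal, with a median of 47.6 RPM in members and 44.2 in the others in the highest quintile. Within quintiles of WT reads per kb, members were instead wider in 5 of 5 (519 against 494 bp in the lowest, 688 against 579 bp in the highest). Islands and start sites were again less frequent in members in 5 of 5 of these. In the quintiles of WT reads, more than 60% GC was less frequent in members in 4 of 5 (8.77% against 14.5% in the lowest). It was more frequent in the highest (54.7% against 46.8%). Median GC content was lower in members in the lower 3 quintiles (49.6% against 50.8% in the lowest) and higher in the upper 2 (60.9% against 59.4% in the highest). Within quintiles of width, GC content was higher in members in 5 of 5 quintiles and the share with an island in 2 of 5. The order of width, GC content, and islands thus depended on what was held similar. That of skew, repeats, G4, and neighbours was the same in all of these divisions.

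Members lay where WT origins were dense. The median number of other WT origins within 500 kb of the midpoint was 29 for members and 17 for the others, and the median gap to the next WT origin was 6913 bp and 9875 bp. The spacing limit of the lists touches this result. Of the 2679 WT origins whose next WT origin lay more than 20458 bp away, 485 were members (18.1%), against 64.6% of the 27516 with a nearer one. Within quintiles of the gap to the next WT origin, members had more neighbours, more reads, and a higher GC content and skew than the others in 5 of 5. The share of members was 67.4% in the closest quintile and 39.9% in the widest. The spacing within the knockout lists was not held similar in this division. The share of members was 41.0% in the decile of WT origins with the fewest neighbours and 78.5% in the decile with the most. Chromosome 19 had the highest share, with 1806 members of 2422 WT origins (74.6%, 95% Wilson interval 72.8% to 76.3%). Its window from 50 to 51 Mb held 94 members of 114 WT origins, the largest number of any window of 1 Mb. The longest runs of consecutive WT origins that were all members counted 29 origins each, on chromosome 1 (chr1:1257214-1860139) and chromosome 22 (chr22:43014420-43744240).

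Members were missing over long stretches in which the reads of 1 knockout line were low throughout. The longest run of WT origins without a member counted 58 origins over 19.2 Mb of chromosome 5 (chr5:53479188-72670438). Of these, 1 had a counterpart in ORC1KO, 39 in ORC2KO, and 45 in ORC5KO, and the median log2 ratio to WT was −0.85 in ORC1KO, −0.16 in ORC2KO, and −0.05 in ORC5KO. The next longest runs, of 32 and 31 origins, lay on chromosome 6 (chr6:15569200-18278028 and chr6:20402929-27247479). There 0 of 32 and 1 of 31 origins had a counterpart in ORC2KO, with median ratios of −0.93 and −0.91 in that line, against −0.08 and −0.01 in ORC1KO. Over the 261 windows of 10 Mb with at least 20 WT origins, the median share of members was 54.2% (interquartile range 45.5% to 63.9%).

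The median log2 ratio of all WT origins was 0.5 or more away from 0 in a knockout line in 7 of these windows, and low in each case. They were the windows at 50 to 70 Mb of chromosome 5 in ORC1KO, and at 0 to 30 Mb of chromosome 6, 110 to 120 Mb of chromosome 13, and 30 to 40 Mb of chromosome 18 in ORC2KO. They held 145 members of 535 WT origins (27.1%), against 61.0% outside them. Without them the share rose from 48.8% to 56.7% on chromosome 6, and from 56.4% to 59.2% on chromosome 5, while chromosome 13 went from 49.8% to 49.2% and then had the lowest share. A lower number of copies of a stretch and less origin activity on it cannot be told apart in these reads. Low shares also occurred without such a shift: at 180 to 190 Mb of chromosome 2, 3 of 23 WT origins were members, and the median ratios lay between −0.12 and −0.04.

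**Figure D3:**
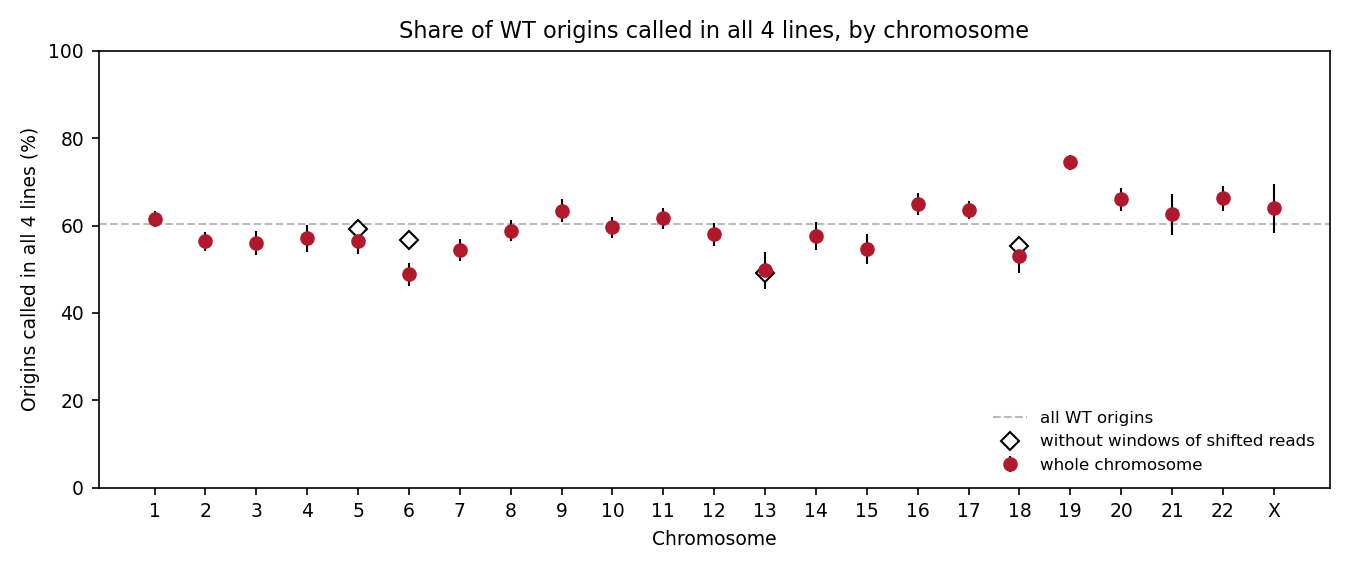
The share of WT origins called in all 4 lines (vertical axis, %) is plotted for each chromosome. Red points are whole chromosomes with 95% Wilson intervals, open diamonds the 4 chromosomes without their 10-Mb windows of shifted reads, and the dashed line all WT origins (60.4%). Chromosome 19 stood highest at 74.6%, and chromosome 6 moved from 48.8% to 56.7% without its windows.

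The reads at members changed little between lines. Joined origins that held a member numbered 18185 in the ORC1KO table, 18153 in that of ORC2KO, and 18170 in that of ORC5KO, and took 58.9%, 57.7%, and 55.7% of the WT reads and 57.0%, 57.7%, and 55.3% of the knockout reads in the table. Total reads per line and table ranged from 6416892 to 8523971, and a member's joined origin had a median of 163 to 165 WT reads and at least 49. The median log2 ratio to WT was −0.07 in ORC1KO (interquartile range −0.24 to 0.11), −0.04 in ORC2KO (−0.17 to 0.11), and −0.02 in ORC5KO (−0.13 to 0.09). For the other WT origins the medians were −0.20, −0.23, and −0.13. Since the calls that define members come from the same reads, a ratio near 0 was built into the choice.

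The study's limit for an origin that went up or down was a 1.5-fold difference in RPM. By this limit 475 joined origins with members were up in ORC1KO (2.61%) and 351 down (1.93%), where 7.03% and 3.95% of all joined origins of that table were. In ORC2KO 324 were up (1.78%) and 154 down (0.848%), with 4.65% and 3.58% over the whole table. In ORC5KO 137 were up (0.754%) and 30 down (0.165%), with 2.08% and 0.68% over the whole table. These calls were made here and are not the study's own. Its results section gives more origins up in all 3 knockout lines than the 966 up in the whole ORC5KO table here. Without the 7 windows of shifted reads, the number down in ORC2KO was 81 in place of 154. With reads scaled to the joined origins of members, 595 were up and 232 down in ORC1KO. Between 95.5% (ORC1KO) and 99.1% (ORC5KO) of joined origins with members stayed within the limit, as did 88.4%, 87.6%, and 97.4% of those of the other WT origins in ORC1KO, ORC2KO, and ORC5KO, which lacked a call in at least 1 line.

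**Figure D4:**
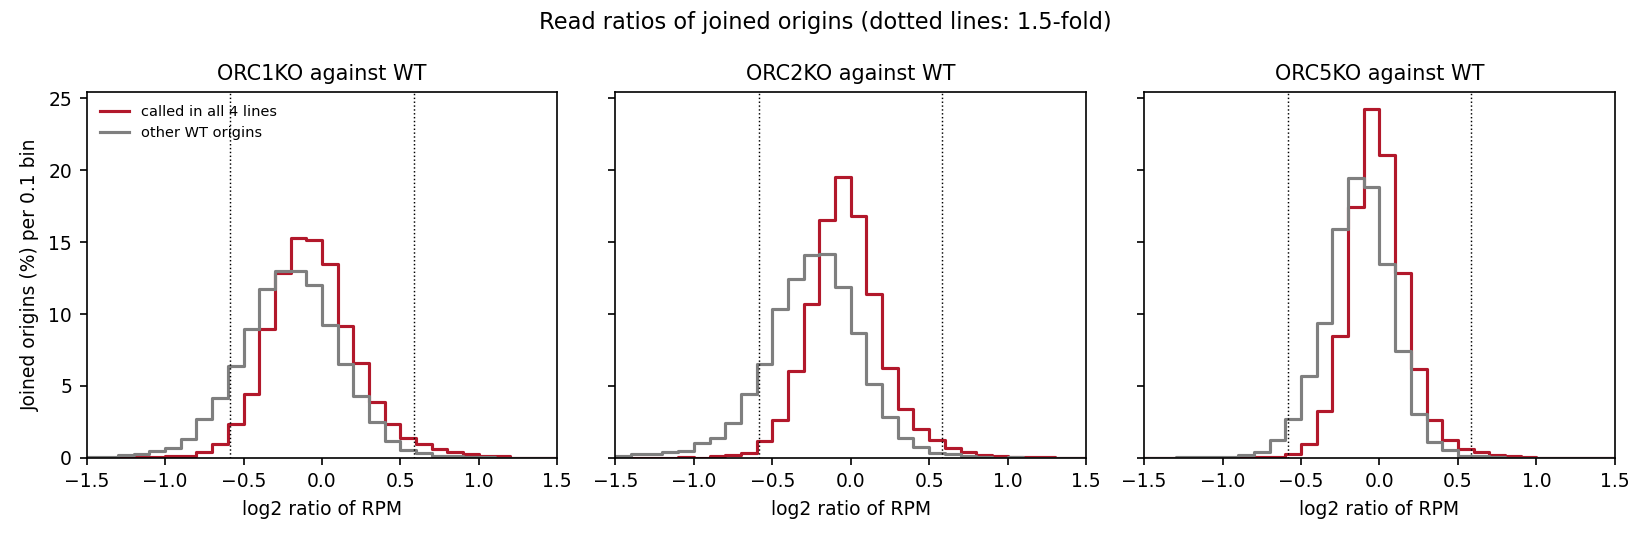
The distribution of log2 ratios of RPM (horizontal axes, knockout over WT) is plotted for joined origins that hold a member and for those of the other WT origins, as the share of joined origins in each 0.1-wide bin (vertical axis, %). Dotted lines mark 1.5-fold. The other WT origins lay lower, with medians of −0.20, −0.23, and −0.13 against −0.07, −0.04, and −0.02.

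The ratios of members to WT went with their GC skew. Members with an absolute skew under 0.2 had median log2 ratios of −0.21 in ORC1KO, −0.10 in ORC2KO, and −0.10 in ORC5KO, and those with a skew of 0.8 or more had medians of 0.58, 0.47, and 0.36. The share at least 1.5-fold above WT was 0.306% of members in ORC1KO in the lowest class and 50.0% in the highest (244 of 488), 0.306% and 34.6% in ORC2KO, and 0.0437% and 18.4% in ORC5KO. Of the 488, 409 (83.8%) had a ratio above 0 in all 3 tables, which share the WT reads, against 3932 of all 18250 members (21.5%). Both the skew and the ATCC repeat went with higher ratios, but they overlap. Members with the repeat had a median absolute skew of 0.770. All members with a skew of 0.6 to 0.8 had median ratios of 0.26, 0.22, and 0.13. A part of the repeat apart from the skew was not tested. Members with both a skew of 0.8 or more and an ATCC repeat (230) had medians of 0.67, 0.54, and 0.44, those with that skew and no repeat (258) medians of 0.45, 0.38, and 0.24, and those with the repeat and less skew (304) medians of 0.30, 0.24, and 0.17. The remaining 17458 members had medians of −0.08, −0.05, and −0.03. The 488 members were less GC-rich than members as a whole, with a median GC content of 51.1% against 56.0%, and 2.66% of them lay within 1 kb of a start site.

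**Figure D5:**
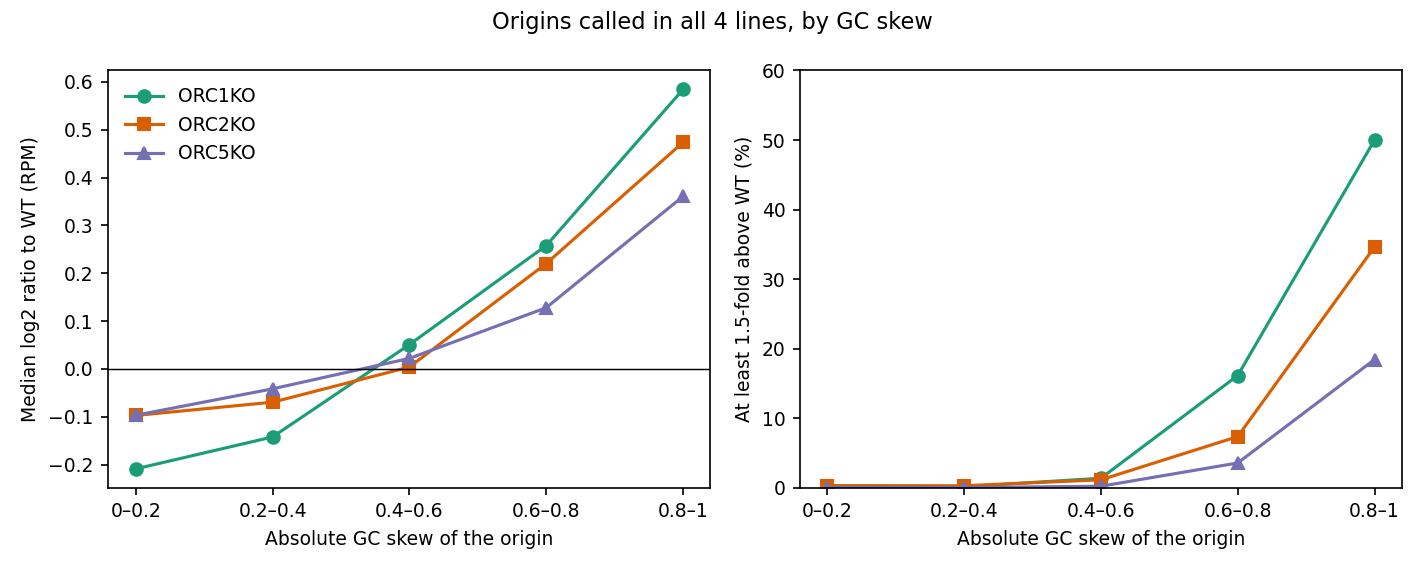
The median log2 ratio of RPM to WT (left) and the share of members at least 1.5-fold above WT (right, %) are plotted for members in 5 classes of absolute GC skew, with a line for each knockout line. The medians rose from class to class in each line and the shares from a skew of 0.4 upward, to medians of 0.58, 0.47, and 0.36 and shares of 50.0%, 34.6%, and 18.4% in the highest class.

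Along GC content the medians moved in ORC1KO. Over quintiles of the members from low to high GC, the median log2 ratio went from 0.09 to −0.24 in ORC1KO. It stayed between −0.05 and −0.03 in ORC2KO and between −0.05 and 0.00 in ORC5KO. The difference between the lines in this slope was not tested.

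The densest members were spread over 3 chromosomes. The WT interval chr22:19725001-19725828 led with a mean of 163 RPM per kb, followed by chr16:46394491-46395044 with 160 and chr6:168233893-168237957 with 157. A further interval on chromosome 22 (chr22:19726029-19727917) and another on chromosome 16 (chr16:46389645-46391143) came next, with 150 and 142. The first and the fourth share a joined origin of 2954 bp in the ORC2KO table, so their reads there are common. The chromosome 6 member is also the widest, at 4065 bp, and lies in a gene of long noncoding RNA (ENSG00000228361). It had 663, 641, and 621 RPM in WT in the tables of ORC1KO, ORC2KO, and ORC5KO, and 542, 533, and 512 RPM in those lines. Its log2 ratios were −0.29, −0.27, and −0.28, below 0 in each line, with exact 95% intervals from −0.36 to −0.23, −0.33 to −0.21, and −0.34 to −0.22. Its GC skew was 0.58. The chromosome 16 members, with 35.9% and 36.2% GC, held no G4 window and no CpG island. The printed stretch of the denser chromosome 16 member repeats the letters AATGGAAT. Whether reads were placed there uniquely was not tested, so the place of these reads is uncertain. The next widest members measured 3063 bp (chr4:1426238-1429300, outside genes) and 2848 bp (chr8:1570672-1573519, in an intron of DLGAP2, which encodes a scaffold protein of synapses).

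The steadiest members were chosen for the smallest difference from WT among the 805 with at least 500 WT reads in each table, so their values are a description. The first lies in JAK3, a tyrosine kinase gene of blood cells (chr19:17841663-17842429). It had 78.2, 76.3, and 74.1 RPM in WT, and 78.8, 76.3, and 73.7 RPM in ORC1KO, ORC2KO, and ORC5KO. The member in R3HDM4 (chr19:900050-900913) had 98.0, 96.5, and 93.2 RPM in WT, and 97.6, 96.4, and 94.1 RPM in the knockout lines. Counting error alone allowed a log2 ratio of −0.17 to 0.19 for JAK3 in ORC1KO, so that differences of that size could not have been seen. The others were a member in an intron of STK32B, a kinase gene (chr4:5385144-5386168), a member outside genes (chr19:58540181-58541960), and a member in a long noncoding RNA gene (ENSG00000267879, chr19:50974786-50976037). All 5 had a G4 window, as did 93.8% of all members. In the order named, their GC skews were −0.37, −0.44, −0.15, −0.63, and 0.52. A one-sided sequence was thus not confined to members above WT. Of the 5, 4 lie on chromosome 19, which held 1806 of the 18250 members. Its share among the 805 was not counted.

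The members farthest above WT are the 3 of that kind whose sequences are printed above. They were chosen for their ratios among 9355 members with the same direction in all 3 tables and at least 100 WT reads. The tables share the WT reads, so the ratios and intervals are a description. The member in MEG8, an imprinted noncoding RNA gene (chr14:101019950-101020708), had 36.2, 36.1, and 34.5 RPM in WT, and 82.8, 82.0, and 65.3 RPM in ORC1KO, ORC2KO, and ORC5KO. Its log2 ratios were 1.195 (95% interval 0.97 to 1.42), 1.18 (0.97 to 1.40), and 0.92 (0.70 to 1.15), and its GC skew was −0.71. The member in an intron of PHF2, a gene of the histone demethylase family (chr9:93661433-93661843), had ratios of 0.96, 1.04, and 0.91 and a skew of 0.87. The member in an intron of CERS4, which encodes a ceramide synthase (chr19:8248389-8249226), had ratios of 1.04, 1.03, and 0.90 and a skew of 0.85. The reads of these 3 come from joined origins of 1062 to 1470 bp, wider than the WT intervals of 411 to 838 bp.

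The members farthest below WT, chosen for their ratios in the same way, had no such skew in common. The member in an intron of MOCS1, a gene of molybdenum cofactor synthesis (chr6:39926462-39927251), had 33.5, 32.7, and 31.3 RPM in WT, and 20.5, 19.98, and 20.1 RPM in ORC1KO, ORC2KO, and ORC5KO. Its ratios were −0.71, −0.71, and −0.64, with a GC skew of 0.15. A member in NPIPA1 and PKD1P3 (chr16:14927707-14928392) had ratios of −0.68, −0.63, and −0.69 and a skew of −0.51. Both belong to duplicated families with near-identical copies, so the place of its reads is uncertain. A member in a long noncoding RNA gene (ENSG00000205622, chr21:38944217-38944804) had ratios of −0.69, −0.58, and −0.56 and a skew of −0.27.

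Of 40 genes of the replication fork, 7 had a WT origin within 1 kb of a start site and 3 a member: POLD1 and POLE, the catalytic subunits of polymerases δ and ε, and RPA2, a subunit of the protein that binds single-stranded DNA. Over all 19962 protein-coding genes, 4081 had a WT origin there and 2681 a member (13.4%). The stronger of the POLD1 members (chr19:50383497-50384829) had 59.4, 70.8, and 55.5 RPM in WT, and 43.9, 66.3, and 51.9 RPM in ORC1KO, ORC2KO, and ORC5KO. At RPA2 (chr1:27914178-27914651) the values were 16.5, 14.9, and 15.4 RPM in WT, and 16.7, 16.0, and 19.5 RPM in the knockout lines. Only other WT origins lay at CDC45, GINS3, LIG1, and MCM7. The MCM7 origin (chr7:100100093-100101265) had no counterpart in any knockout list, and the nearest listed origins of those lines lay 25647 to 25756 bp away, yet its joined origins had 51.6, 49.8, and 48.1 RPM in WT, and 42.7, 53.7, and 51.9 RPM in the knockout lines. Both LIG1 origins lacked only the ORC2KO call, and the stronger had 98.4 RPM in that line, against 101 in WT.

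Among 30 genes of the colon epithelium, 10 had a WT origin at a start site and 4 a member: CLDN7, a tight junction gene, AXIN2, a target of Wnt signalling, and the keratin genes KRT19 and KRT8. The CLDN7 member (chr17:7262787-7264105) had 52.7, 50.6, and 48.8 RPM in WT, and 55.6, 61.3, and 56.5 RPM in ORC1KO, ORC2KO, and ORC5KO. The KRT19 member (chr17:41527371-41527937) was lower in the knockout lines, with log2 ratios of −0.73, −0.41, and −0.37. Of 30 broadly expressed genes, 4 had a WT origin and 1 a member, YWHAZ, which encodes a 14-3-3 protein. Of 30 genes of other lineages, 2 had a WT origin and both had members: INS, the insulin gene, and RBFOX3, a splicing factor gene of neurons. The RBFOX3 member with the most reads (chr17:79482709-79483729) had 73.4, 71.5, and 68.5 RPM in WT, and 67.9, 68.1, and 64.5 RPM in ORC1KO, ORC2KO, and ORC5KO. These counts are too small to set the lists apart.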

How the data were processed

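SNS-seq origins of 4 HCT116 lines (8 samples, 2 replicates each) were used. Per the labels, the authors trimmed reads with Trim Galore 0.6.4, aligned them to GRCh38 with Bowtie, called peaks with MACS2, and used bedtools. Per the methods, peaks were called in each replicate and those found in both were kept. The deposited lists give each origin's start and end, with no height, and hold only origins with another within 20458 to 26017 bp, depending on the line. The methods describe peaks nearer than the median distance between peaks as clusters. The deposited tables give counts of reads per joined origin of WT and a knockout line, with replicates merged. The counting tool is not given in the sources used here. All intervals lay within the chromosomes of GRCh38 by name and length.

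Overlaps, RPM, and log2 ratios were computed with Python 3.11.15, numpy 2.4.6, and pandas 2.3.3, and sequences were read with pysam 0.24.0. RPM used all reads of the line in the table, other contigs included, without a filter or pseudocount, and a member took the reads of the joined origin it lies in. Shares have 95% Wilson intervals, and ratios of single origins exact (Clopper–Pearson) intervals. CpG islands scored 17 per CpG and 1 less per other base, with over 200 bp, at least 50% GC, and an observed over expected CpG above 0.6. G4Hunter windows of 25 bases needed a score of 1.5. Start sites were those of GENCODE release 44 (basic set, protein-coding). The functions were tested on simulated data.

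The members and gene lists were chosen with earlier results of these data known. Named origins were the 5 with the most WT reads per kb, the 5 steadiest with at least 500 WT reads in each table, the 3 highest and 3 lowest in all 3 tables with at least 100 WT reads, the 3 nearest the rule on each side (of which 1 is not reported here), and the 3 widest. Origins at list genes were named by WT reads. The MCM7 and LIG1 origins, the windows of shifted reads, and the comparisons by spacing were chosen after their values were seen.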

Additional observations from a re-analysis of the deposited data

How the results depend on the processing

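Of 49 alternatives, 38 left a count within 1.5 times its value. The number of members was 17994 with 50% of the WT interval covered in each line, 18001 with the WT midpoint inside, 18246 with a base common to all 4 lines, and 17275 with reciprocal overlap. Without the ORC1KO, ORC2KO, or ORC5KO line it was 22006, 19564, or 19111. Restricted to WT origins with the next within 20458 bp, an alternative added after the data were seen, it was 17765. Restricted to intervals of at least the median width of each list, which leaves 15130 WT origins, it was 8469. With a 2-fold limit, members up were 45, 34, and 0, and members down 17, 13, and 2 in ORC1KO, ORC2KO, and ORC5KO. With reads scaled to the joined origins of members, the number down in ORC1KO was 232 in place of 351. Without the 7 windows of 10 Mb with shifted reads, an alternative added after the data were seen, the number down in ORC2KO was 81. The midpoint lay in a CpG island in 1983 members, and a start site lay inside 1137. These alternatives change what is counted, by construction. Counts of members within the limit in all 3 lines were not run, since the 3 tables share the WT reads. No paired analysis was possible because the tables merge the replicates, and for the same reason no replicate could be left out. At a median of 163 to 165 WT reads, single members within counting error of WT cannot be called unchanged.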
